A study of Mus musculus with 48 samples.

Results

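The common reference RNA was 1 RNA preparation, labelled with the red dye Cy5, that shared every array with the green (Cy3) RNA of a mouse organ. It was measured on 48 of the 48 arrays of the study, 24 of them with liver and 24 with whole colon. The arrays were Agilent 2-colour arrays with 41174 probes, of which 27050 could be named, for 18434 genes. The organs came from C57/BL6 offspring aged 12 weeks, whose dams and who themselves, after weaning, ate a diet sufficient (H) or deficient (L) in selenium and folate. A group carries the dam's letter and then that of the offspring, so HH animals had diet H throughout, LL animals diet L throughout, and HL and LH animals changed diet at weaning. By the methods of the study all 4 groups ate the same high-fat base diet and the offspring were male. Liver came from 5 HH animals, of which 1 was on 2 arrays that were averaged, and from 6 animals of each other group. Colon came from 6 animals of each group. Every one of the 12 slides held 4 arrays of a single organ, with the groups once each, and the liver slides and the colon slides were scanned on different days, so that organ, slide set and scan day cannot be told apart.

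The sources differ on what the reference was. The sample labels call it multi-organ RNA of the same strain, the deposited design text describes a homogenised pregnant mouse with its foetus, and the methods of the study describe a pool of the intestinal and liver RNA of the animals. It was the same Cy5 preparation on every array by the labels, so it has no biological replicates of its own. In a reference design each organ is measured against this common partner, and a gene that the partner lacks has no dependable ratio. In RNA of a whole body each organ contributes by its mass and RNA content, and skeletal muscle is the bulkiest tissue of a mouse. The pregnant uterus adds decidua, the lining that surrounds the implanted embryo, and placenta, both of which secrete hormones of the prolactin family in rodents. Cy5 and Cy3 are taken up and read with different efficiency from probe to probe, and with 0 dye swaps this dye bias cannot be told apart from a difference between reference and organ.

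The signal of a channel was the log2 of the median pixel intensity of a spot, minus the array's median of that channel, so a level of 0 is the middle probe of that channel. The ratio was reference minus organ on this scale, and a ratio of 1 means a 2-fold brighter reference. Cy5 was well above background, by the scanner software's own criterion, at 73.7 to 80.1% of spots, and Cy3 at 55.1 to 66.0% of spots on liver arrays and 66.8 to 73.7% on colon arrays. Over all genes the median ratio was -0.0024 against liver and -0.16 against colon. Centring did not put silent probes at a ratio of 0. The 153 negative control spots read -1.68 ± 0.16 (SD) on liver arrays and -0.77 ± 0.19 on colon arrays, so a probe without target in either RNA appears dimmer in the reference, above all against liver. The 10 spiked-in control transcripts had ratios 0.60 to 0.77 higher on colon than on liver arrays (median 0.65). The 31 proteasome genes, which all cells use, had a median ratio of -0.05 against liver and 0.35 against colon, and 0 of them differed by over 2-fold (*Psma1* with 0.09 and 0.35, *Psmb1* with -0.33 and -0.16). In 8 animals the organ RNA held *Xist*, a female transcript, against the stated male sex, and in HL liver animal 1 it held pancreas transcripts. The Cy5 spots of some genes named here were saturated on part of the 48 arrays, so their reference levels there are lower limits. These were *Myh8* on 26, *Myh4* on 17, *Kap* on 10, *Alb* on 4 and *Mup1* on 1.

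Against liver 4519 probes were over 2-fold brighter in the reference (11% of those tested) and 14837 over 2-fold dimmer (36%), at an adjusted p under 0.05 in limma's treat. Of the dimmer probes 9893 were not well above background in Cy3 on any liver array, and after loess normalisation without background correction the same test gave 3137 brighter and 1933 dimmer probes. Against colon 2283 probes were brighter (5.54%) and 1255 dimmer (3.05%). Brighter than both organs were 1170 probes (2.84%), of which 1151 were well above background in Cy5 on all 48 arrays. By gene, each taken by its brightest probe, 821 of 18434 were brighter than both organs (4.45%). In the following, a gene passed where the reference was over 2-fold brighter in that test, and a pair of ratios is given against liver first and colon second. The 821 genes were read by lists of genes typical of an organ, and 113 of the 821 stood in such a list.

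**Figure D1:**
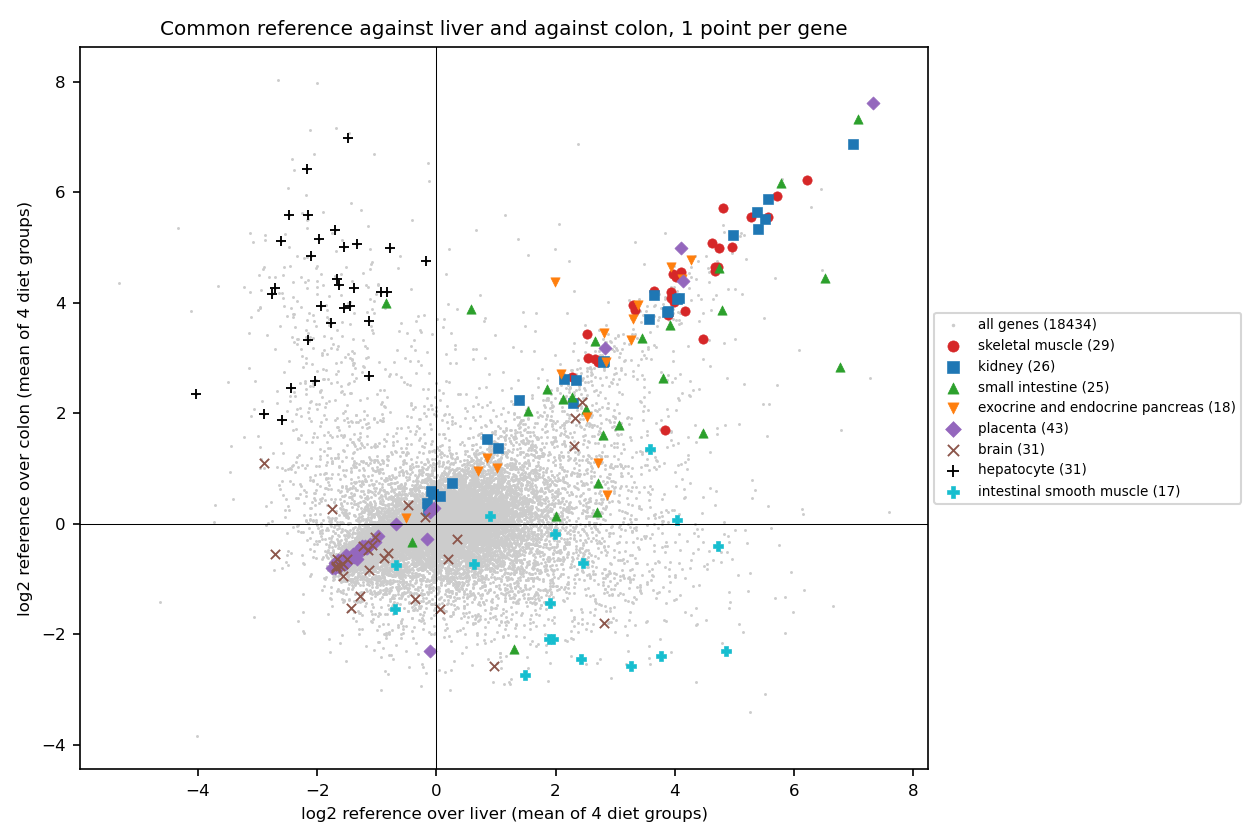
Log2 ratio of the common reference over liver (x axis) and over colon (y axis), mean of the 4 diet groups, with 1 grey point for each of 18434 genes and coloured symbols for 8 gene lists. Skeletal muscle (29 genes) and most kidney genes lie high on both axes, while hepatocyte genes lie to the left and high and intestinal smooth muscle genes to the right and low.

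Skeletal muscle genes formed the most complete group. All 29 measured genes of the list of 30 were brighter in the reference than in both organs, where the share among all genes was 4.45%, and their median ratio was 4.03 against liver and 4.22 against colon. The list held thick and thin filament proteins, the triad and the energy enzymes of fast fibres. *Acta1*, the skeletal muscle actin, had a reference level of 10.38 to 10.66 (median 10.47) on liver arrays against 5.12 to 6.12 (median 5.77) in liver. On colon arrays it was 10.13 to 10.54 (median 10.42) in the reference and 5.41 to 6.16 (median 5.72) in colon. The 2 channels did not overlap for it on either set of arrays, and the ratio was 4.73 ± 0.044 (SE, 23 animals, limma treat, adjusted p = 6e-28) against liver and 4.65 ± 0.056 (24 animals, adjusted p = 1.01e-28) against colon. *Myh4*, the myosin heavy chain of the fastest fibres and saturated in Cy5 on 17 of 48 arrays, was at 10.72 to 11.18 (median 10.87) in the reference and 5.56 to 6.77 (median 6.27) in liver, and at 10.40 to 10.95 (median 10.77) and 5.70 to 6.92 (median 6.07) on colon arrays. *Ckm*, the muscle creatine kinase, had ratios of 4.10 and 4.55, and *Tnnt3*, the fast skeletal troponin T, of 5.28 and 5.56. The highest ratios of the list were those of *Myot* (6.22 and 6.21), a Z-disc protein, and *Myl1* (5.71 and 5.93), a myosin light chain, and *Ttn*, which encodes the giant spring protein titin, followed against liver with 5.56 and 5.55. *Eno3*, the muscle enolase, which is in no list, had 6.28 and 5.73. The lowest against liver was *Ampd1*, the muscle AMP deaminase, at 2.27, and the lowest against colon *Cav3*, the caveolin of the muscle membrane, at 1.70.

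The promoters of 3 of these genes are given because the muscle genes stood together in the reference. The sequences are the 250 bases before the transcription start in RefSeq on the build GRCm38.p6, read in the direction of the gene. Capitals mark CAGCTG, an E box of the kind that the MyoD family binds, TATAAA on either strand, and the CArG box, the motif of serum response factor. *Acta1* lies at chr8:123894776-123895025 on the minus strand, *Ckm* at chr7:19410844-19411093 and *Myh4* at chr11:67237562-67237811, both on the plus strand.
Acta1: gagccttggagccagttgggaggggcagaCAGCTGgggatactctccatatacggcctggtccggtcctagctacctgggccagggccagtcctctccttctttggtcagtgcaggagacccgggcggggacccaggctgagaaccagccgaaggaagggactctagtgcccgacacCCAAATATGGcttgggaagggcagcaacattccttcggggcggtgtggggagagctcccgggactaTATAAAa
Ckm: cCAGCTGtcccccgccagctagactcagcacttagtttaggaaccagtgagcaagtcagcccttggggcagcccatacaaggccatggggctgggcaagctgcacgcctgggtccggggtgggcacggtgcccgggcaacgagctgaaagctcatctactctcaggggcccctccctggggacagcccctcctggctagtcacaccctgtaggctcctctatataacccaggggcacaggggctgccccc
Myh4: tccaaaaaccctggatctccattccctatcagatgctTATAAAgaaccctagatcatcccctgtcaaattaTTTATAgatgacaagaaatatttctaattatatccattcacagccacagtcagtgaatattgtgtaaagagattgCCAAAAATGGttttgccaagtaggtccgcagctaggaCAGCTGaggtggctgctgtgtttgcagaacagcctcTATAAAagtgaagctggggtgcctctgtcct
CAGCTG stood in 10 of the 19 skeletal muscle promoters found in the table (52.6%), against 12.8% of 27025 promoters of the same length. TATAAA stood in 4 of the 19 (21.1%, against 13% of all) and the CArG box in 2 of the 19 (10.5%, against 1.4%). Other lists held CAGCTG in 0 to 42.9% of their promoters, with 6 of 14 for eye (42.9%), 5 of 17 for colon epithelium (29.4%), 4 of 15 for heart (26.7%) and 2 of 19 for kidney (10.5%). The CArG box stood in 3 of 13 promoters of adult testis (23.1%) and 3 of 15 of heart (20%), shares above that of skeletal muscle. These matches describe letters in the windows and were not tested against binding.

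Muscle genes also gave a signal in the organ channel. Over the 29 genes the organ level ran from -0.30 to 7.18 on liver arrays (median 3.49) and from -0.89 to 6.83 on colon arrays (median 2.71), and *Acta1* read 5.77 in liver and 5.72 in colon. Across these 29 genes the reference and organ levels had a Pearson correlation of 0.91 on liver arrays and 0.90 on colon arrays, as a description over genes that share the arrays. The part of carry-over between channels, of muscle RNA in the organs and of cross-hybridisation in these organ levels was not tested.

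Genes of developing muscle were less uniform. *Myh8*, the perinatal myosin heavy chain and saturated in Cy5 on 26 of 48 arrays, was at 10.72 to 11.35 (median 10.97) in the reference and 4.89 to 6.32 (median 5.95) in liver, with ratios of 5.10 and 5.20. *Myf6* (2.85 and 3.21), a myogenic regulator, and *Chrna1* (2.00 and 2.28), the alpha subunit of the muscle acetylcholine receptor, were the other 2 of 10 that passed in both. *Myh3*, the embryonic myosin heavy chain, did not pass. In Cy5 it was well above background on 48 of 48 arrays, but in Cy3 on 0 liver arrays. *Myog*, which drives myoblast differentiation, passed only against colon (0.89 and 1.32), where the spiked-in controls also read higher. *Myf5* was not well above background in Cy5 on any array. In the heart list 3 of 15 genes passed in both. They were *Myl3* (5.43 and 5.63) and *Myl2* (2.64 and 2.98), light chains that slow skeletal fibres also use, and the atrial myosin *Myh6* (1.95 and 2.14). The atrial peptide gene *Nppa* was at -0.20 and -0.01.

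Of 26 kidney genes measured, 18 were brighter in the reference than in both organs (69.2%), with list medians of 2.81 and 2.94. *Kap*, an androgen-regulated gene of the proximal tubule, was at 10.70 to 10.99 (median 10.89) in the reference and 3.34 to 4.30 (median 3.91) in liver, and at 10.38 to 10.98 (median 10.76) and 3.58 to 4.45 (median 3.83) on colon arrays. Its channels did not overlap, with ratios of 6.99 and 6.87 (limma treat, adjusted p = 4.13e-30 and 4.03e-33) that are lower limits where its Cy5 spot was saturated, on 10 of 48 arrays. *Slc12a1*, the sodium-potassium-chloride cotransporter of the thick ascending limb, was at 5.32 to 5.63 (median 5.52) in the reference against -0.18 to 0.19 (median -0.03) in liver. Its ratios were 5.51 and 5.52, and those of *Umod*, the uromodulin of the same segment, 4.04 and 4.06. The genes that passed came from several segments. The proximal tubule gave *Slc34a1* (4.97 and 5.22), a phosphate transporter, and *Slc5a2* (4.07 and 4.09), a glucose transporter, and the distal convoluted tubule gave *Slc12a3* (2.34 and 2.60). *Ren1*, which encodes renin of the juxtaglomerular cells, had 2.80 and 2.93. *Nphs1*, the nephrin of the glomerular podocytes, did not pass, with -0.14 and 0.25. *Aqp2*, the water channel of the collecting duct, passed only against colon (0.85 and 1.54). The spiked-in controls likewise read 0.60 to 0.77 higher on colon than on liver arrays. *Cdh16*, *Slc7a13* and *Kcnj1* had ratios of over 5 in both. *Cltrn*, which is in no list and encodes collectrin, a membrane protein known from the kidney, had 7.05 and 7.27, and *Acsm2*, an acyl-CoA synthetase of the kidney that is in no list either, had 5.80 and 6.23.

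In the small intestine list 18 of 25 genes were brighter than both organs (72%), with medians of 2.71 and 2.44. *Defa20*, an antimicrobial defensin of Paneth cells, was at 9.10 to 9.49 (median 9.31) in the reference on liver arrays, 1.77 to 2.59 (median 2.24) in liver and 1.55 to 2.55 (median 1.74) in colon. Its ratios of 7.08 and 7.33 ranked it next after *Prl8a2* by the smaller of both ratios, and a second defensin, *Defa3*, had 5.78 and 6.17. Defensin genes are near-identical copies, so these probes may share targets. *Lct*, the lactase of the brush border, was at 6.47 to 7.05 (median 6.71) in the reference on liver arrays against 1.57 to 2.29 (median 2.00) in liver and 1.52 to 2.37 (median 1.86) in colon. *Sis*, the sucrase-isomaltase, separated the organs, with an organ level of 0.23 to 0.53 (median 0.36) in liver but 2.43 to 5.14 (median 4.05) in colon and ratios of 6.78 and 2.84. *Fabp6*, an ileal bile acid carrier, passed only against liver (2.00 and 0.15), and *Apoa4*, an apolipoprotein that the mouse liver also makes, only against colon (-0.85 and 4.00). *Slc10a2*, the ileal bile acid transporter, was dimmer in the reference than in colon, at -2.26.

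Of 18 pancreas genes 11 were brighter than both organs (61.1%), with medians of 2.77 and 2.81. All 11 encode digestive enzymes, as do most genes of the list. *Cela3b*, an elastase, had the highest ratios, 4.27 and 4.78. *Cpa1*, a carboxypeptidase, was at 4.42 to 5.28 (median 4.87) in the reference on colon arrays and 1.21 to 1.94 (median 1.60) in colon, with ratios of 3.26 ± 0.19 and 3.33 ± 0.042 (SE). In liver *Cpa1* ran from 1.40 to 6.41 (median 1.66), and its highest value, in HL liver animal 1, lay above the reference. In that animal the list's median ratio was -0.64, where the other 22 liver animals lay between 2.07 and 3.16. The list's count was 11 without it too, and the ratio of *Cpa1* over liver was 3.46 ± 0.38 (SD, n = 22). *Reg1*, a secreted protein of acinar cells, had 6.46 and 6.06. The insulin genes of the islets did not pass, with -0.51 and 0.11 for *Ins2*, while *Ins1* was not well above background in Cy3 on any liver array.

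**Figure D2:**
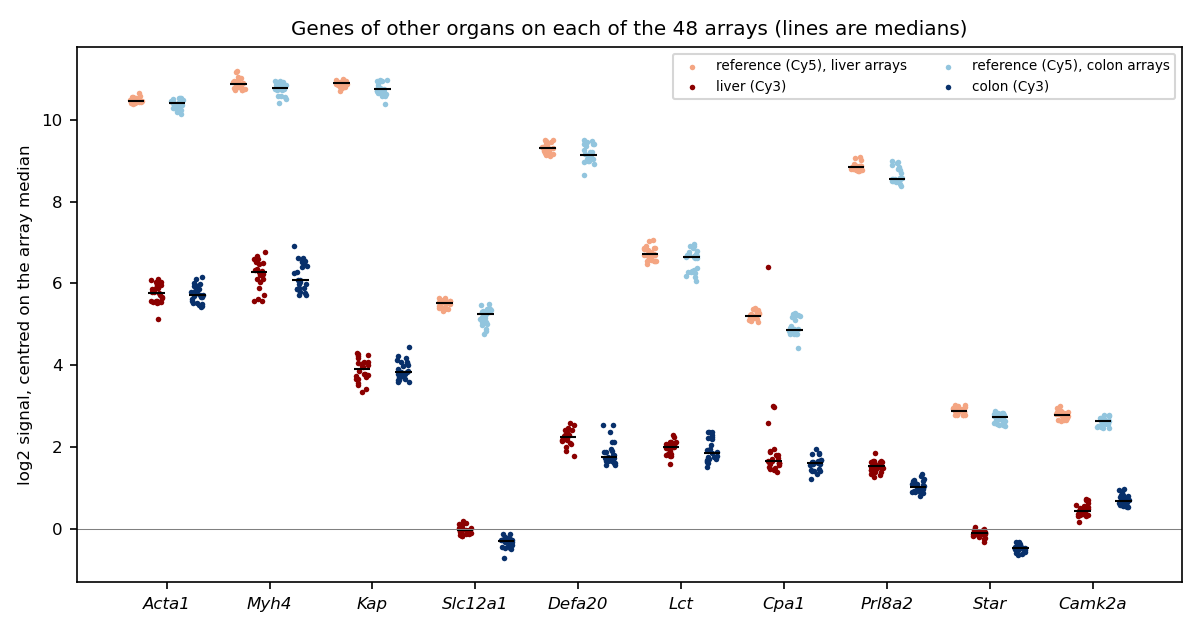
Log2 signal, centred on the array median, of 10 genes on each of the 48 arrays, with the reference (Cy5) and the organ (Cy3) apart for liver and colon arrays and a line at each median. For *Acta1* the reference medians were 10.47 and 10.42 and the organ medians 5.77 and 5.72, and the 1 liver value of *Cpa1* above its reference values is HL liver animal 1.

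*Prl8a2*, a prolactin-like hormone made by the decidua, ranked first of all genes brighter than both organs by the smaller of its ratios. It was at 8.75 to 9.09 (median 8.85) in the reference on liver arrays and at 8.37 to 8.99 (median 8.56) on colon arrays. In liver it was at 1.26 to 1.86 (median 1.52) and in colon at 0.81 to 1.34 (median 1.01), so no organ value came near the reference. The ratios were 7.33 ± 0.036 (SE, 23 animals) and 7.61 ± 0.034 (24 animals), with adjusted p = 2.1e-33 and 3.59e-39 in limma's treat. Genes of the prolactin family made up a large part of the placenta list, and most of those measured did not pass. Of the 43 placenta genes measured 4 passed in both (9.3%), and all 4 were of that family. The other 3 were *Prl3c1* (4.11 and 4.98) and *Prl6a1* (4.14 and 4.39), which decidua is known to express, and *Prl8a9* (2.82 and 3.18). *Prl8a9* was not well above background in either organ, and by the dimmest signal that still was, the reference was at least 6.77-fold brighter than liver and at least 8.82-fold brighter than colon.

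Of the other 39 placenta genes, which include trophoblast genes such as *Tpbpa* and *Gcm1*, 0 passed against either organ. *Prl3b1*, placental lactogen II, was at -0.01 to 0.96 (median 0.54) in the reference and 0.16 to 1.24 (median 0.65) in liver, which overlapped. *Tpbpa*, the marker of the spongiotrophoblast, was at -1.76 to -0.47 (median -1.58) in the reference against -0.78 to 0.04 (median -0.55) in liver, and its ratios were -1.02 and -0.33. In Cy3 it was well above background on 1 liver array and 0 colon arrays. *Gcm1*, the regulator of the syncytiotrophoblast, was not well above background in either organ. Of the 43 genes 11 were not well above background in Cy5 on any array and 10 were on all 48. As dimmer than liver read 32, where 23.9% of all genes and the negative controls do too. With the scanner software's background-subtracted signals 9 placenta genes passed in place of 4, and *Tpbpa* turned to 1.46 and 1.77. The ovary and adrenal list holds the steroid synthesis of both glands. *Star*, which carries cholesterol into mitochondria, was at 2.78 to 3.03 (median 2.87) in the reference and -0.31 to 0.05 (median -0.11) in liver, with ratios of 3.01 and 3.19. *Cyp11a1* (2.65 and 2.81), *Hsd3b1* (1.51 and 2.06) and the inhibin gene *Inha* (1.78 and 1.71) were the other 3 of 20 ovary and adrenal genes that passed in both. *Cyp19a1*, the aromatase, was not well above background in either organ and did not pass. Of 10 mammary gland genes 1 passed in both (10%), the lipase gene *Cel*, which is also in the pancreas list. *Wap*, of whey, had -0.97 and -0.41, and the casein gene *Csn2* was not well above background in Cy5 on any array.

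Foetal genes were mixed. Of 18 measured 8 passed against liver and 3 against colon, where 17.1% and 8.47% of all genes did. In both 2 passed (11.1%), the imprinted genes *Grb10* (3.87 and 2.61), a restrainer of insulin signalling, and *Mest* (3.49 and 2.63). *Grb10* was at 4.79 to 5.16 (median 4.97) in the reference on liver arrays, 0.51 to 1.77 (median 1.08) in liver and 1.97 to 2.47 (median 2.07) in colon, with no overlap. *Igf2*, the foetal growth factor, was at 2.44 to 2.65 (median 2.56) in the reference and 0.40 to 0.84 (median 0.61) in liver, but at 2.18 to 2.53 (median 2.45) and 1.96 to 2.64 (median 2.37) on colon arrays, where the values overlapped and the ratio was 0.05. *Afp*, the alpha-fetoprotein of foetal liver and yolk sac, was at 1.70 to 1.86 (median 1.76) in the reference and 1.24 to 2.53 (median 1.79) in liver, with a ratio of -0.03. Against colon *Afp* passed, at 2.30. *Dlk1*, an imprinted foetal gene, had 0.15 and 0.29. The oncofoetal genes *Lin28a* and *Lin28b* were not well above background in Cy5 on any array. Of the 3 embryonic globins, which the early embryo's red cells carry, *Hbb-y* had -0.77 and 0.19. *Hbb-bh1* was well above background in Cy5 on 23 arrays and *Hba-x* on 2, and in Cy3 *Hbb-bh1* was on 0 liver and 2 colon arrays and *Hba-x* on 0, so no ratio is given. Of 21 genes of the developing nervous system 0 passed against either organ, and *Dcx*, of migrating neurons, was not well above background in Cy5 on any array. Of 27 cartilage and bone genes 0 passed in both, and 3 (against 17.1% of all genes) passed against liver, *Col2a1* (3.65), the main collagen of cartilage, *Bglap* (1.60), the osteocalcin of osteoblasts, and *Comp* (1.44).

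**Figure D3:**
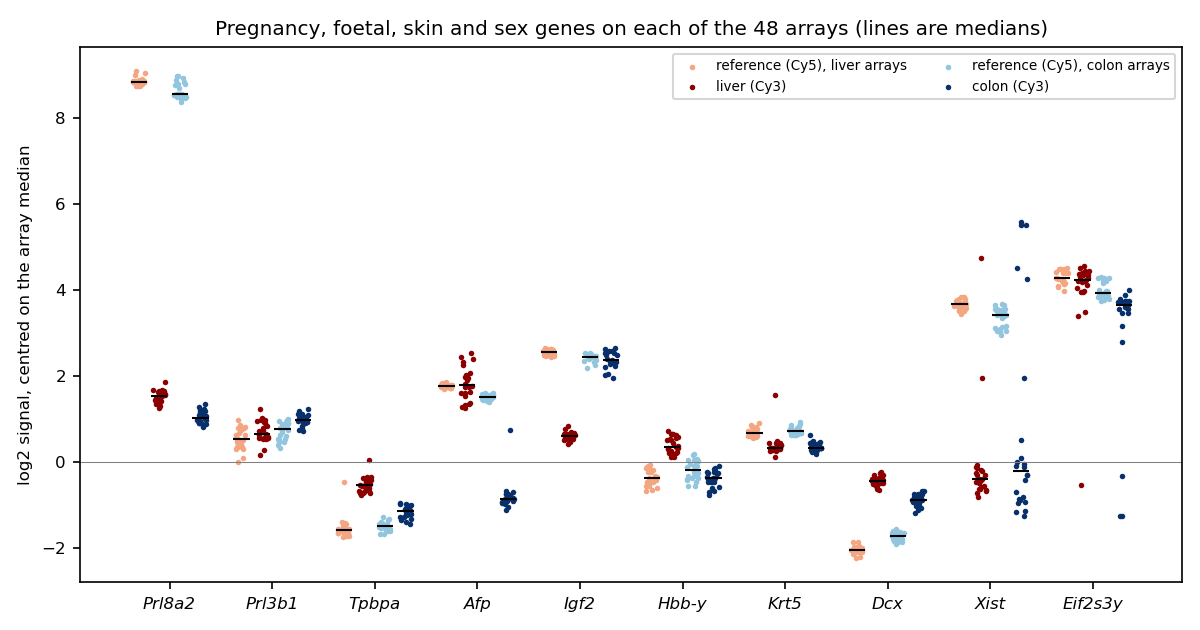
Log2 signal, centred on the array median, of genes of pregnancy, foetus, skin and sex chromosomes on each of the 48 arrays, by channel and organ as labelled, with a line at each median. *Prl8a2* stands far above both organs (8.85 against 1.52 on liver arrays), *Tpbpa* and *Dcx* lie low in both channels, and a few organ values stand apart for *Xist* and *Eif2s3y*.

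Of 31 brain genes measured, 3 passed in both (9.68%). They were *Camk2a* (2.32 and 1.92), a kinase of excitatory synapses that has an isoform in muscle, *Aqp4* (2.45 and 2.20), the water channel of astrocytes that fast muscle fibres and kidney also express, and *Cbln1* (2.30 and 1.41), a synaptic organiser of the cerebellum. *Camk2a* was at 2.65 to 3.00 (median 2.79) in the reference on liver arrays, 0.16 to 0.72 (median 0.44) in liver and 0.53 to 0.98 (median 0.68) in colon. *Gfap*, the filament of astrocytes, had -1.49 and -0.64, *Nrgn*, of forebrain neurons, 0.20 and -0.64, and *Mobp*, of myelin, -1.75 and 0.28. The myelin gene *Mog* was not well above background in Cy5 on any array. Against liver 17 brain genes read as dimmer in the reference, where 23.9% of all genes did. Against colon 6 were dimmer, where 4.28% of all genes were, among them *Gpr37l1* (-2.58), a receptor that glia express.

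Of 28 epidermis genes 4 passed in both (14.3%): *Krtdap* (3.28 and 3.44), *Sbsn* (3.43 and 2.99), *Dmkn* (3.07 and 2.62) and *Cst6* (2.65 and 1.59), secreted proteins of the differentiating upper layers. The keratins of the basal layer did not pass. *Krt5* was at 0.55 to 0.91 (median 0.67) in the reference and 0.10 to 1.55 (median 0.33) in liver, and *Krt14* had ratios of 0.35 and -0.40. *Krt10*, the keratin above the basal layer, had 0.40 and 0.75, and *Lor*, the loricrin of the horny layer, had 0.34 and 0.88. Of 19 hair follicle genes 1 passed in both, *Tchh* (2.14 and 1.79), the trichohyalin of the inner root sheath. With the background-subtracted signals 7 epidermis genes passed in place of 4.

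Several organs gave 0 or few genes, where 4.45% of all genes passed in both, a share at which short lists can hold 0. No gene of the 15 of stomach, the 17 of lymphocytes and thymus, the 14 of adult testis or the 6 of pituitary passed in both. Among them *Prm1* and *Tnp1* of sperm had -0.76 and -0.54, and -0.61 and 0.02, the pituitary gene *Pomc* -0.34 and -0.22, and *Cd79a* of B cells -1.25 and -0.54. Lung gave 2 of 16 (12.5%), *Lyz1*, a lysozyme that Paneth cells also make, and *Napsa*, a protease that the kidney also expresses. The surfactant gene *Sftpc* was well above background in Cy5 on 1 of 48 arrays, and *Scgb1a1*, of the airway, had -0.44 and 0.29. The eye list gave *Cryaa* (2.18 and 2.31), a lens crystallin. Of 18 erythroid and marrow granulocyte genes *Ank1* passed in both (3.71 and 3.57), an ankyrin that muscle also expresses. *Alas2*, of haem synthesis in red cells, had -1.36 and 2.64, and *Mpo*, of granulocytes, 0.11 and 0.57. Of 16 fat genes 2 passed in both (12.5%). *Adipoq*, the adipocyte hormone, was brighter in the reference than in liver (2.30) and dimmer than in colon (-2.08). In these bulk RNAs fewer cells of a type and less RNA per cell cannot be told apart.

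**Figure D4:**
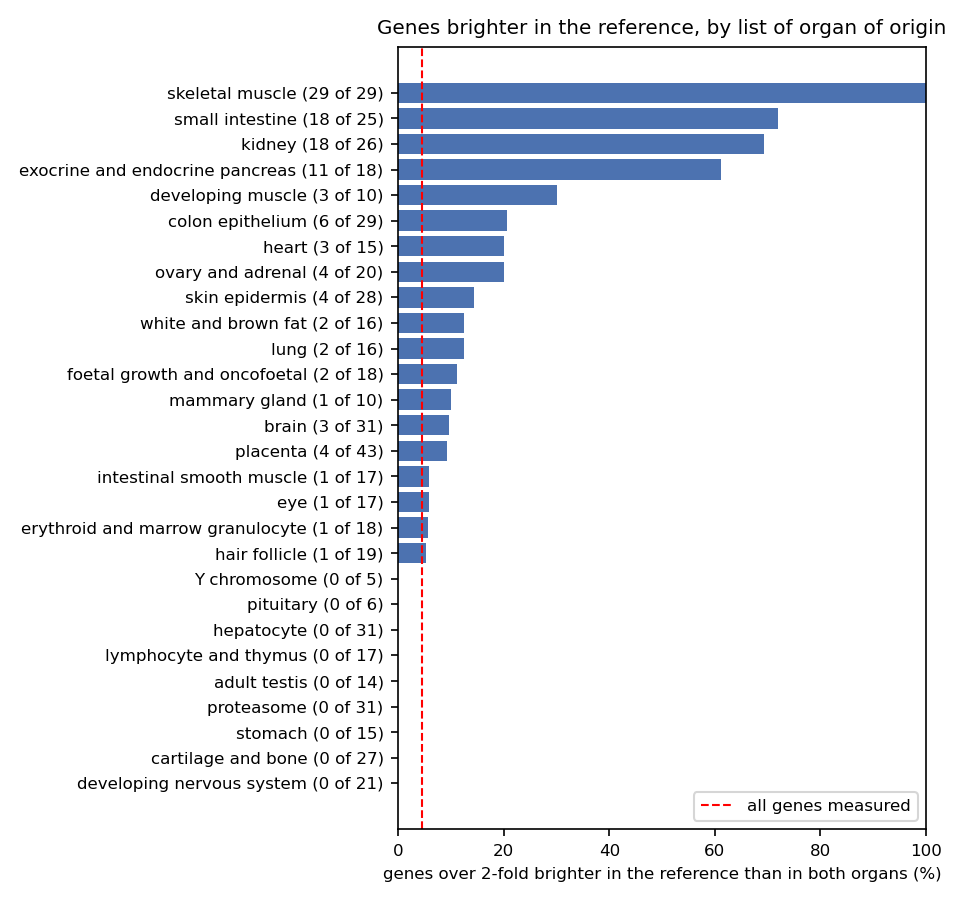
Share of the measured genes of each list with 5 or more measured genes that were over 2-fold brighter in the reference than in both organs (bars, in percent), with the number of genes beside each name and a dashed line at the share of all genes, 4.45%. Skeletal muscle reaches 100%, small intestine, kidney and pancreas lie between 61.1 and 72%, and 9 of the lists shown are at 0.

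Hepatocyte genes were high in liver, while colon epithelium genes went both ways against colon. Of 31 hepatocyte genes 25 were dimmer in the reference than in liver (median ratio -1.77), where 23.9% of all genes read as dimmer, and 31 were brighter than in colon (median 4.26), against 8.47% of all genes. *Cyp2e1*, a cytochrome P450, had -2.15 and 3.33, and *Fga*, a fibrinogen chain, -0.18 and 4.75. *Alb*, the serum albumin, was at 9.81 to 10.76 (median 10.36) in the reference on liver arrays, 10.84 to 11.54 (median 11.33) in liver and 6.33 to 7.20 (median 6.67) in colon. Of 29 colon epithelium genes 28 were brighter in the reference than in liver (median 3.91), against 17.1% of all genes. Against colon 9 were dimmer, where 4.28% of all genes were, and 7 brighter, where 8.47% were. Brighter than both organs were 6 (20.7%). They were *Mptx1* (6.47 and 4.60), *Retnlb* (5.00 and 4.25), *Clca4a* (3.56 and 3.20), *Hoxb13* (2.75 and 3.04), *Guca2b* (2.99 and 1.94) and *Hoxd13* (1.84 and 2.25). *Hoxd13* was well above background in Cy3 on 0 colon arrays. *Car1*, a carbonic anhydrase of colonocytes, was at 8.04 to 8.56 (median 8.44) in the reference and 9.67 to 10.45 (median 10.15) in colon, with ratios of 3.82 and -1.74, and *Muc2*, the main mucin of goblet cells, had 3.29 and -1.42. The ion exchanger *Slc26a3* had 4.18 and 0.49, and the water channel *Aqp8*, which liver also expresses, -0.07 and 3.43. Of 17 intestinal smooth muscle genes 13 were brighter in the reference than in liver, 9 dimmer than in colon and 1 brighter than in colon. *Myh11*, the smooth muscle myosin, had 3.27 and -2.57, and *Actg2*, the enteric actin, 2.47 and -0.71.

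*Xist*, the RNA that silences an X chromosome in female cells, was at 3.43 to 3.84 (median 3.67) in the reference on liver arrays, and the liver values ran from -0.81 to 4.74 (median -0.41). *Eif2s3y*, on the Y chromosome, was at 3.98 to 4.52 (median 4.27) in the reference, close to its liver level of -0.53 to 4.56 (median 4.23). The ratio of *Xist* was 3.77 ± 0.23 against liver and 2.62 ± 0.44 against colon, and 0 of 5 Y chromosome genes passed in both, *Ddx3y* with -0.10 and 0.81. The reference values of both genes were narrow, and the spread lay in the organ channel, where HL liver animal 2, LL liver animal 6, HH colon animals 1 and 5, HL colon animal 5 and LL colon animals 1, 3 and 5 had an *Xist* level of 1.96 or more. All other animals had 0.50 or less. The ratio of *Eif2s3y* reached 4.79 over liver in 1 HL animal and 5.55 over colon in 1 HL animal. The same groups held the lowest *Xist* ratios, -1.12 over liver and -2.43 over colon. *Eif2s3y* was well above background in Cy3 on 23 of 24 liver arrays and 22 of 24 colon arrays, so most, though not necessarily all, of these 8 animals gave a signal of both genes. Without these 8 animals the ratio of *Xist* was 4.08 ± 0.058 against liver and 3.97 ± 0.098 against colon (SE). In this setting, chosen with earlier results of these data known, 1132 probes were brighter than both organs, and the counts of skeletal muscle (29), kidney (18), small intestine (18), pancreas (11) and placenta genes (4) were as with them.

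Genes dimmer in the reference than in both organs were rare, 193 probes (0.469%) and 84 genes (0.456%). *Trim12a*, a member of the TRIM family of innate immunity, led them with -4.01 ± 0.042 and -3.84 ± 0.041. It was at -1.10 to -0.46 (median -0.75) in the reference and 2.75 to 4.00 (median 3.18) in liver, and at -0.11 to 1.08 (median 0.52) and 3.61 to 4.90 (median 4.33) on colon arrays, without overlap. *Hgfac* (-2.22 and -1.97), the activator of hepatocyte growth factor, and *Sult1a1* (-2.24 and -1.94), a sulfotransferase, came next by the smaller ratio. *Dio1*, a selenoenzyme that activates thyroid hormone, had -2.32 and -1.76. *Zfp874a*, *Aatk*, *Ptov1*, *Isoc2b*, *Proser2* and *1700057G04Rik* completed the 10 with ratios of -3.06 to -1.60. Of these, *1700057G04Rik* was well above background in Cy5 on only 6 of 48 arrays. In Cy3 it was so on 6 liver and 24 colon arrays. Its ratio against liver, -1.79, was close to the -1.68 of the negative controls. Of the 193 probes 52 were well above background in Cy3 on all 48 arrays.

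The reference channel repeated closely. The Pearson correlation of Cy5 levels over all probes was 0.995 to 0.999 between liver arrays, 0.989 to 0.999 between colon arrays and 0.989 to 0.998 between a liver and a colon array, where the organ channels had 0.826 to 0.878. The median SD of a probe was 0.18 over the 48 arrays. Between the 6 liver slides and the 6 colon slides 45 probes were over 2-fold higher (0.109%) and 23 over 2-fold lower (0.0559%) in the reference channel at an adjusted p under 0.05 in limma. These differences concern 1 RNA, and several of the genes were abundant in the organ on the same array. *Cyp2a12*, a liver cytochrome P450, was at 4.36 to 5.00 (median 4.90) in the reference on liver slides and at 1.85 to 2.34 (median 1.98) on colon slides, a difference of 2.76 ± 0.11 (SE, adjusted p = 1.03e-09, limma), where the organ medians were 7.12 in liver and -0.53 in colon. *Hamp*, which encodes the iron hormone hepcidin, differed by 2.17 ± 0.11 and *Nnmt*, a nicotinamide methyltransferase, by 2.04 ± 0.15, in the same direction. *Serpina1d*, an antitrypsin gene of the liver, went the other way, at 8.74 to 8.92 on liver slides and 10.47 to 10.70 on colon slides, and so did the major urinary protein gene *Mup1*, with 9.30 against 10.85 as medians. *Mup1* and *Serpina1d* have near-identical copies that the probes may share. *Acta1* differed by 0.09 ± 0.05 and *Kap* by 0.13 ± 0.05, and 0 genes of the muscle, kidney, small intestine, pancreas and placenta lists moved by over 2-fold. The part of the partner RNA, the slide set and the scan day in these differences cannot be told apart.

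**Figure D5:**
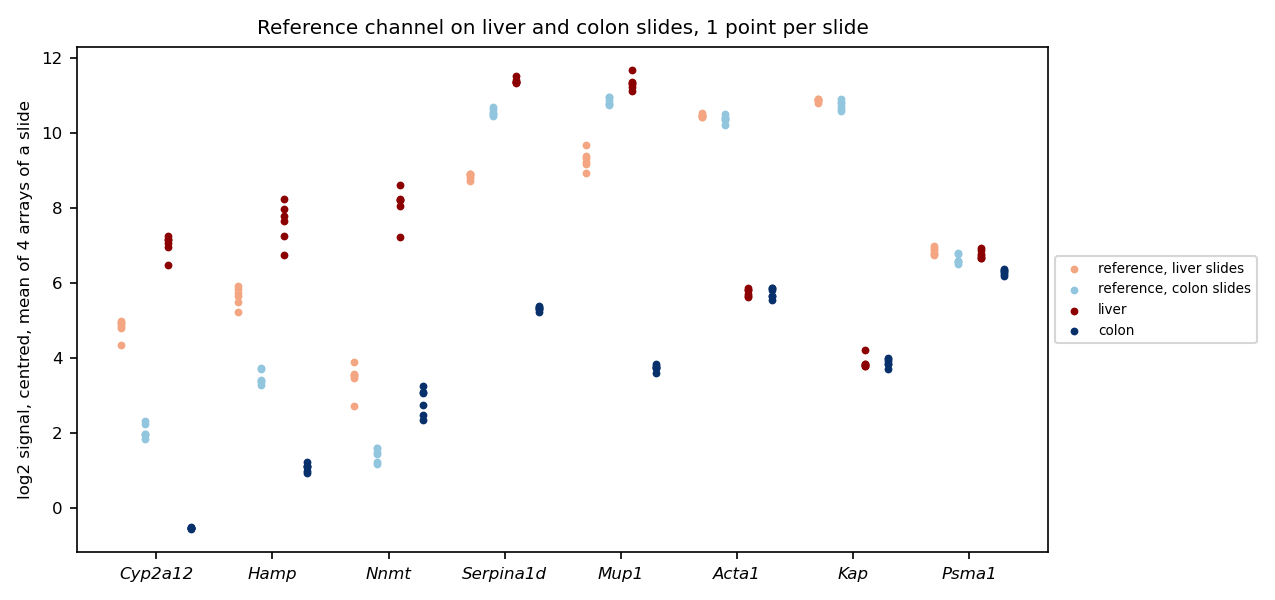
Log2 signal of 8 genes, centred and averaged over the 4 arrays of a slide, with 1 point per slide, for the reference on liver and colon slides and for the organs. The reference medians of *Cyp2a12* are 4.90 on liver and 1.98 on colon slides, those of *Serpina1d* 8.88 and 10.55, and those of *Acta1* 10.48 and 10.39.

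The diet of the animal on the other channel was not detectable in the reference channel. With limma's F test over the 4 groups 0 probes passed on liver arrays and 0 on colon arrays, and 152 (0.369%) and 40 (0.0971%) had an unadjusted p under 0.05. With the slide as a block 0 passed as well, and 521 probes on liver arrays and 372 on colon arrays had an unadjusted p under 0.05. The unadjusted counts all lie below the share that chance alone gives on average at that threshold, and the reason was not tested. Neither they nor the counts of 0 show that there was no difference. The 4 groups of each organ shared the reference and the slides.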

How the data were processed

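The authors deposited the scanner output of each array, with median intensity and local background per spot in both channels, made by Feature Extraction 10.10.1.1 per the file headers, and a table of log2 ratios. The submitters' processing notes name limma and R 3.0.2. That table correlated at 0.9997 or more with loess of the raw intensities, in the direction reference over organ. Gene names came from a RefSeq table by accession. No background was subtracted. Control and flagged spots were left out, spots of a probe and the 2 arrays of 1 animal were averaged, and limma 3.58.1 in R 4.3.3 fitted 4 diet groups per organ, with treat at a log2 fold of 1, Benjamini-Hochberg adjustment and a threshold of 0.05. The test of a ratio asked whether it exceeded 2-fold. It covers the spread of animals and arrays but no biological replicates of the reference. The number of arrays limits the precision. Reference levels of liver and colon slides were compared as 6 and 6 slide means. The members, gene lists and alternatives were chosen with earlier results of these data known. Genes were named from the key genes of each list, without those near background in an organ where they add nothing to the list's count and 1 that is not reported here, and from the 15 brightest and 10 dimmest genes in both organs, by the smaller ratio, with further list members chosen after their values were seen. Of 166 list genes with several probes, 75 differed in call between probes and 10 had opposite calls. For a probe not well above background in an organ, the bound sets the mean reference signal against the dimmest signal that still was.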

Additional observations from a re-analysis of the deposited data

Results flagged for a closer look

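Of 80 sets of 5 or 6 animals of 1 organ and diet that were screened for 1 animal apart from the rest (Dixon's criterion, by which chance alone marks about 1 in 20), 14 held one. The median log2 reference over liver of the exocrine and endocrine pancreas genes was -0.64 in 1 HL animal, against 2.43 to 3.12 in the other 5, and 2.07 in 1 HH animal, against 2.90 to 3.16. For *Xist* the ratio over liver was -1.12 in 1 HL animal and 1.82 in 1 LL animal, against 3.77 or more in the rest of their groups, and over colon it was -2.43 in 1 HL animal. For *Eif2s3y* the ratio over liver was 4.79 in 1 HL animal and 0.71 in 1 LH animal, and over colon 5.55 in 1 HL animal. For the skeletal muscle genes the median was 4.25 over liver in 1 LL animal, against 3.97 to 4.05, and 4.19 over colon in 1 LH animal, against 4.35 to 4.38. The epidermis genes had -0.21 over liver in 1 HH animal and -0.17 over colon in 1 HL animal. The foetal genes had 0.069 over colon in 1 HH animal and 0.055 in 1 LL animal. The cause of each was not tested.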

How the results depend on the processing

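No paired analysis was possible because the replicate numbers follow accession order and the labels give no number that liver and colon samples share. With the slide as a random block, 4368 probes were brighter and 14600 dimmer than liver, 2166 and 1126 against colon, and 1104 brighter than both. The counts of skeletal muscle (28 to 29), kidney (17 to 20) and pancreas genes (8 to 15) stayed within 1.5 times their values under every alternative run. With 1.5-fold in place of 2-fold, 7489 probes were brighter than liver, 3986 brighter than colon, 8965 dimmer than colon and 2141 brighter than both. With 4-fold they were 1667 brighter and 263 dimmer against liver, 992 and 101 against colon, 462 brighter than both, 0 brain genes and 11 small intestine genes. With normexp and centring 5303 probes were dimmer than liver. With normexp and loess 2621 were brighter and 1624 dimmer than liver, with loess alone 1933 dimmer, and with the ratios as deposited 1898 dimmer. With the processed signals 4731 were dimmer than liver, 3789 brighter and 3029 dimmer against colon, 1978 brighter than both, with 7 epidermis and 9 placenta genes, and 321 probes of the reference channel differed between slide sets. Centring on the median ratio gave 8287 brighter and 4157 dimmer against liver, 581 dimmer than colon and 1944 brighter than both. Centring on the proteasome genes, chosen after seeing the data, gave 2610 dimmer than colon. With dim Cy5 probes left out 4960 were dimmer than liver. Without a minimum fold 27601 probes of the reference channel differed between slide sets.

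Of 2701 ratios of named genes under alternatives 121 lost and 33 gained the call of over 2-fold. A change of direction was counted only where the main or the alternative ratio was called. By this rule 20 turned direction, and the cause was not tested. Against liver *Csn2* (0.052 under loess and 0.050 with the ratios as deposited), *Hba-x* (0.036 and 0.038), *Ibsp* (0.15 under normexp and loess, 0.18 under loess and with the ratios as deposited, 1.70 with processed signals), *Krt71* (0.011, 0.022, 0.022 and 0.67), *Sox11* (0.026, 0.016, 0.016 and 0.16), *Tpbpa* (1.46 with processed signals) and *Ucp1* (2.08) did. Against colon *Ibsp* (1.76) and *Tpbpa* (1.77) did with processed signals. Leaving out each animal gave 4441 to 4625 probes brighter and 14737 to 14875 dimmer than liver, 2260 to 2314 and 1238 to 1283 against colon, and 1159 to 1183 brighter than both, and leaving out each slide gave 65 to 72 probes of the reference channel.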
